A study of Mus musculus with 15 samples.

Results

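The 4 Notch receptor genes Notch1, Notch2, Notch3 and Notch4 and the 4 genes of their activating ligands Dll1, Dll4, Jag1 and Jag2 were followed by bulk RNA-seq through 8 culture conditions of mouse cells. They were taken by gene symbol, 8 of the 44674 genes in the count table, and all 8 passed the filter on low counts that left 19401 genes for testing. Levels are given as CPM, the count of a gene scaled to the total count of its library and multiplied by 1000000. Levels are compared between genes only after division by the length of the merged exons (CPM per kb).

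The marrow cells came from whole bone marrow (BM) of adult Tie2-CreERT2;Rosa26-tdTomato mice, in which tamoxifen turns on a red reporter in cells that use the promoter of Tek, the gene of the endothelial receptor Tie2. P0 is the first culture of about 2 weeks in EGM-2, an endothelial medium. From it, reporter-positive and CD45-negative cells were sorted with surface endomucin (P0 Emcn+, 2 libraries) or without (P0 Emcn-, 2 libraries). Passages P1, P2 and P3 of Emcn- bone marrow endothelial cells (BMECs) had 2 libraries each and passage P4 had 1. The labels name the lung libraries (2) only by tissue, and the study's methods describe them as Emcn- cells of the same reporter sorted from lung cultures. The MSC libraries (2) are marrow mesenchymal stromal cells, which the methods trace to Osx-Cre;Rosa26-tdTomato mice and a separate mesenchymal medium. All 15 libraries carry the genotype label WT, so no Notch gene was altered in any group, and what distinguishes a group is its sort, tissue, passage or reporter. One dish usually held the marrow of 1 mouse.

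Notch receptors are single-pass membrane proteins that are activated by ligands on a neighbouring cell. Binding leads to cleavage by ADAM proteases and then by gamma-secretase, and the freed intracellular domain joins the DNA-binding protein RBPJ to switch on targets such as the Hes and Hey repressors. In blood vessels Notch1, Notch4, Dll4 and Jag1 are known for their roles in sprouting and in arterial character, while Notch3 is known as the receptor of pericytes and vascular smooth muscle. Notch2 and Jag1 are also used by marrow stromal and bone-forming cells.

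The genes lie at separate loci in GRCm38. On chromosome 2 are Notch1 (26457903 to 26516663, minus strand), Dll4 (119325784 to 119335962, plus strand) and Jag1 (137081456 to 137116644, minus strand). Chromosome 17 holds Dll1 (15367354 to 15376872, minus strand), Notch3 (32120820 to 32166852, minus strand) and Notch4 (34564268 to 34588503, plus strand). Notch2 is on chromosome 3 (98013527 to 98150361, plus strand) and Jag2 on chromosome 12 (112907819 to 112929776, minus strand). Exons of 5 of these genes overlap another annotated gene. The partner with most counts is Gm13568, which is antisense to Notch1 and had at most 2159 counts in a library. Whether the counting used strand is not given in the sources used here.

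Promoter sequences are shown for Dll4, Notch4, Dll1 and Notch3, the first 3 because they were among the 4 members with a log2 fold change above 5 in P0 Emcn+ over P0 Emcn-, and Notch3 because it went the other way. The fourth such member, Jag2, had no bases left after the cut described next. They are RefSeq sequences of GRCm38.p6, cut to the bases ahead of the RefSeq start site that lie in no annotated exon of the gene. Capitals mark the SOX core ACAAT on either strand.
Dll4 (chr2:119325534-119325783, plus strand): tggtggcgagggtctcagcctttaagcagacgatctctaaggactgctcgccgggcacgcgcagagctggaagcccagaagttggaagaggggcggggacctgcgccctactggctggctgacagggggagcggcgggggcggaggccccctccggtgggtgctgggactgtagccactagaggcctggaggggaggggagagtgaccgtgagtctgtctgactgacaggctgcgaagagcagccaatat
Notch4 (chr17:34564045-34564267, plus strand): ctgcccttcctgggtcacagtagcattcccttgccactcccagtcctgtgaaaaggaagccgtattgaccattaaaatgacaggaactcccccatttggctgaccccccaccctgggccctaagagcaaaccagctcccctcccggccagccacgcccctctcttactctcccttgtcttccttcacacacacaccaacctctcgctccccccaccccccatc
Dll1 (chr17:15376933-15377182, minus strand): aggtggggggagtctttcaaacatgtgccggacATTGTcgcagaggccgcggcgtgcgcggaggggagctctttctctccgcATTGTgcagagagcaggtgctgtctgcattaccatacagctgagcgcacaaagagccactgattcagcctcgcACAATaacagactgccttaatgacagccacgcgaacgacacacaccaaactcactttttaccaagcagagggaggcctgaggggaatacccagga
Notch3 (chr17:32166891-32167140, minus strand): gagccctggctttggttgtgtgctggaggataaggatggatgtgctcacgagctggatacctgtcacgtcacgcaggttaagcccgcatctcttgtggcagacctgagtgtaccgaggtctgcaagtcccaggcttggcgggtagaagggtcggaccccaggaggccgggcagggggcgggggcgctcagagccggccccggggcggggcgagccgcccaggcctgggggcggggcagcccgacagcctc

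All 8 genes had a RefSeq promoter window of 250 bases before to 50 after the start site, and Dll1 had 2. The RBPJ core TGGGAA, searched on both strands, was in 0 of the 9 windows, against 25.6% of all 32851 windows of this length. The SOX core ACAAT occurred 3 times in 1 window of Dll1, once in that of Jag1 and once in that of Notch4, where it lies 10 bases before the start site and outside the stretch printed above. Of all windows, 31.0% held it. A match describes letters only.

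Depth ranged from 9914620 to 39718807 counts per library, so 3 counts correspond to between 0.0755 and 0.303 CPM. The labels were checked against marker lists before the Notch genes were read. The summed level of 10 endothelial markers was 12682 and 10626 CPM in P0 Emcn+ and 42.7 to 622 CPM in the other 13 libraries. Cdh5, the gene of VE-cadherin, stood at 6222 and 5118 CPM in P0 Emcn+, at 119 and 6.35 CPM in P0 Emcn- and at 0.0564 to 2.33 CPM in the 7 passaged libraries. The sum of 8 fibroblast and mesenchymal markers, Col1a1, Dcn and Pdgfra among them, went the other way, with 186 and 243 CPM in P0 Emcn+ against 3869.9 to 15929 CPM elsewhere. The libraries labelled Emcn- BMEC therefore went against their endothelial label in these marker sums and in Cdh5, and they are called here by their sort and passage. Within 3 conditions 1 library had a higher endothelial marker sum than its partner. These were P0 Emcn- replicate 1 (275 against 69.9 CPM), lung replicate 2 (622 against 166 CPM) and MSC replicate 2 (362 against 42.7 CPM). Tek went the other way in P0 Emcn- (20.3 against 49.4 CPM), and Cldn5 did in lung (1.06 against 2.35 CPM).

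Notch4 set P0 Emcn+ cells apart from every other condition. Its level was 926 and 744 CPM in P0 Emcn+, against only 23.9 and 6.96 CPM in P0 Emcn-. It read 7.29 and 28.0 CPM in lung, 1.18 and 14.3 CPM in MSC, and 2.20 to 4.37 CPM in the 7 passaged libraries. Even the lower P0 Emcn+ library was above every other library, while lung, P0 Emcn- and MSC overlapped one another. P0 Emcn+ exceeded P0 Emcn- by 5.75 ± 1.06 (log2 fold change ± SE, n = 2 against 2, adjusted p = 0.00210 in the quasi-likelihood test of edgeR, Benjamini-Hochberg adjusted). The same test and adjustment stand behind every adjusted p below unless another tool is named. A gene is said to rise, fall or differ only where adjusted p was under 0.05 and the log2 fold change was beyond 1.5. The study used the same 2 limits, but on fold changes from DESeq2 shrunken with ashr, and only for comparisons with P0 Emcn-. The fold changes here are not shrunken. In such bulk libraries fewer cells of a type and less RNA per cell cannot be told apart.

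Notch1, the broadly used receptor that also acts in endothelium, followed the same direction with a smaller difference. P0 Emcn+ libraries had 359 and 318 CPM, and P0 Emcn- libraries 119 and 101 CPM. In lung it was 68.0 and 93.2 CPM, in MSC 46.7 and 69.8 CPM, and in the 7 passaged libraries 43.6 to 57.0 CPM. P0 Emcn+ and then P0 Emcn- stood clear of the rest, whereas lung overlapped MSC and MSC overlapped the passages. Notch1 was 1.65 ± 0.198 higher on the log2 scale in P0 Emcn+ than in P0 Emcn- (adjusted p = 0.000146).

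Notch3 ran opposite to Notch4. It was lowest in P0 Emcn+ with 3.49 and 3.71 CPM, against 146 and 75.4 CPM in P0 Emcn-. The other conditions lay between, with 71.9 and 113 CPM in MSC, 37.7 and 29.6 CPM in lung, 28.6 and 26.9 CPM at P1, 53.2 and 46.6 CPM at P2, 73.3 and 63.0 CPM at P3 and 73.4 CPM in the P4 library. The lowest of the other libraries, at 26.9 CPM, was above both P0 Emcn+ libraries. In the order of levels P0 Emcn- and MSC overlapped, and the order below P4, namely P3, P2, lung, P1 and P0 Emcn+, had no overlap between neighbours. Notch3 was lower in P0 Emcn+ than in P0 Emcn-, with a log2 fold change of -4.92 ± 0.353 (adjusted p = 6.70e-06).

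Notch2, a receptor used by many cell types, varied least. Its 15 values ran from 106 to 261 CPM, and every condition overlapped its neighbour in the order of mean levels, except that the single P4 library at 130.4 CPM lay just above both lung libraries. P0 Emcn+ (186 and 248 CPM) and P0 Emcn- (194 and 156 CPM) also overlapped, and the difference of 0.34 ± 0.223 on the log2 scale did not pass the test (adjusted p = 0.281). Within batch d, which the labels give to replicate 1 of both groups, the log2 ratio was -0.02, and within batch a it was 0.70.

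Of the ligands, Dll4, the main Delta ligand of arterial and sprouting endothelium, had the widest range. It measured 270.1 and 119 CPM in P0 Emcn+. The P0 Emcn- libraries had 8.41 and 0.403 CPM, where the second value rests on 4 counts. It was 1.27 and 2.95 CPM in lung, 0.140 and 4.02 CPM in MSC, and at or below 0.117 CPM in the 7 passaged libraries, where it had 1 to 4 counts. Both P0 Emcn+ libraries were above all others, and their own values differed more than 2-fold from each other. The log2 fold change of P0 Emcn+ over P0 Emcn- was 5.36 ± 1.25 (adjusted p = 0.00760), with log2 ratios of 5.05 within batch d and 8.24 within batch a.

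Dll1, the other Delta ligand in the set, reached 35.4 and 43.2 CPM in P0 Emcn+, where P0 Emcn- had 1.59 and 0.403 CPM. It stayed at or below 2.79 CPM in lung and MSC and at or below 0.431 CPM in the passages. Jag2, a Jagged ligand, reached 25.1 and 18.7 CPM in P0 Emcn+, where P0 Emcn- had 0.780 and 0.303 CPM, and was no higher than 2.12 CPM in any of the others. For both ligands P0 Emcn+ was free of overlap with every other library. The log2 fold changes over P0 Emcn- were 5.16 ± 0.531 for Dll1 (adjusted p = 5.92e-05) and 5.20 ± 0.496 for Jag2 (adjusted p = 3.69e-05).

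Jag1, the Jagged ligand shared by endothelium and stroma, was the 1 ligand that was not called between the P0 groups. P0 Emcn+ libraries had 168 and 182 CPM, P0 Emcn- libraries 93.8 and 122 CPM and MSC 93.2 and 176 CPM. Levels were 48.2 and 83.4 CPM in lung and 49.8 to 72.0 CPM in the passages. MSC overlapped both P0 groups, although the P0 groups did not overlap each other, and lung overlapped the passages. The P0 Emcn+ difference of 0.73 ± 0.286 on the log2 scale did not pass the test (adjusted p = 0.0746).

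Between the P0 groups, 6 of the 8 genes passed the test, 5 higher in P0 Emcn+ (Notch1, Notch4, Dll1, Dll4 and Jag2) and 1 lower (Notch3), against 19.2% of all genes tested, 7.79% higher and 11.4% lower. The median log2 fold change of the 8 genes was 3.41, beside -0.06 over all genes tested. These 6 genes passed under each alternative tool, filter and scaling tried, with the replicate block and with any 1 of the 4 libraries left out. Batch d gave a larger separation than batch a for Notch3 (log2 ratio -5.35 and -4.32) and a smaller one for Notch4 (5.32 and 6.77) and Dll1 (4.52 and 6.77). The endothelial and mesenchymal marker sums above moved with this contrast, as did the summed level of 8 macrophage markers (534 and 492 CPM for P0 Emcn+, 204 and 251 CPM for P0 Emcn-), and their part in the Notch differences was not tested.

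**Figure D1:**
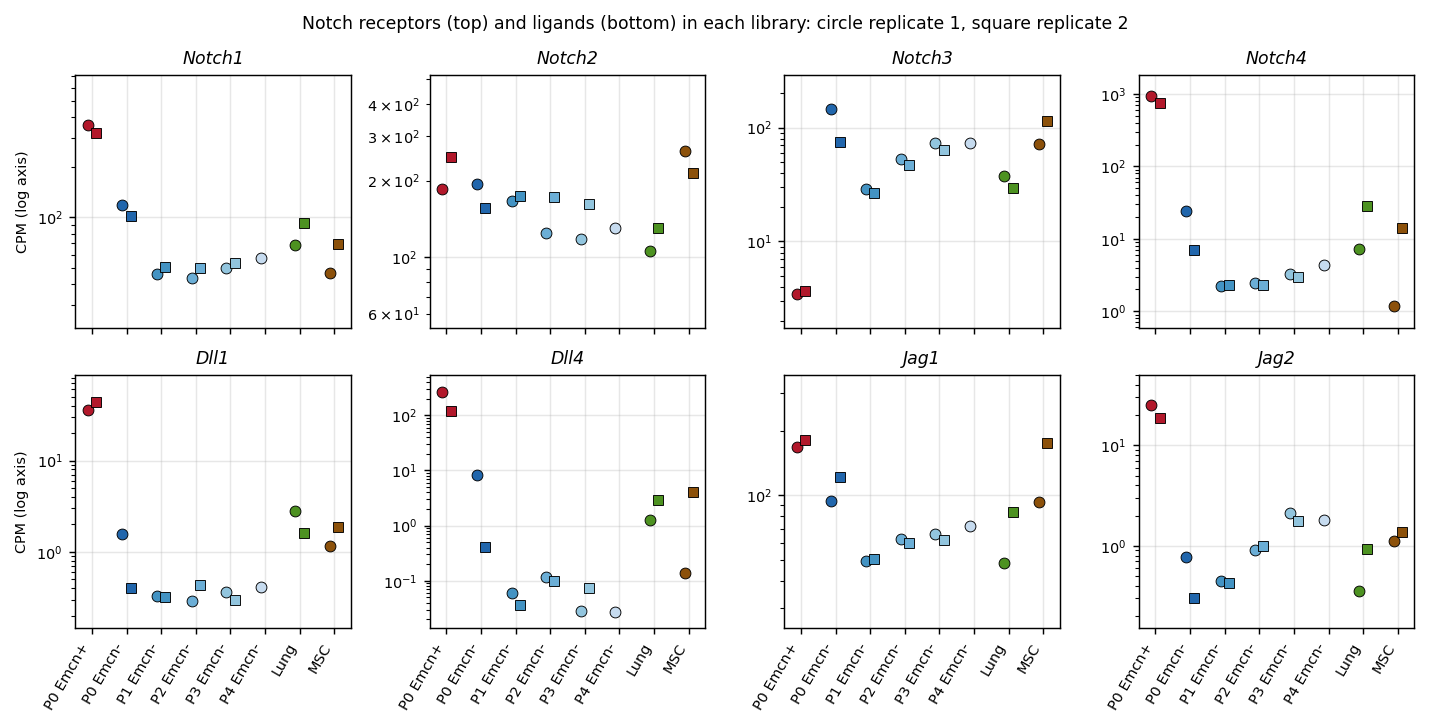
Level of each receptor (top) and ligand (bottom) in CPM on a log axis, 1 point per library, circles for replicate 1 and squares for replicate 2 of the 8 conditions. The P0 Emcn+ points are highest for Notch1, Notch4, Dll1, Dll4 and Jag2 and lowest for Notch3 (3.49 and 3.71 CPM), while Notch2 stays between 106 and 261 CPM throughout.

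The leading receptor and ligand, counted per kb of exon, differed between conditions. Notch4 held 72.8% and 66.8% of the summed receptor CPM per kb in the P0 Emcn+ libraries, followed by Notch1 (16.0% and 16.2%) and Notch2 (10.9% and 16.6%), with Notch3 at 0.303 ± 0.042% (SD, n = 2). In P0 Emcn- the leading receptors were Notch2 (38.0% and 45.5%) and Notch3 (38.2% and 29.4%), and Notch4 supplied 6.25% and 2.72%. Notch2 alone led in every lung, MSC and passaged library.

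The ligand makeup was mixed in P0 Emcn+ and nearly uniform elsewhere. Dll4 held 63.2% of the ligand CPM per kb in P0 Emcn+ replicate 1 and 41.3% in replicate 2, where Jag1 was level with it at 41.5%. Dll1 held 7.56% and 13.6%, and Jag2 held 3.25% and 3.58%. In the other 13 libraries Jag1 held 85.8% to 98.8%, with the low end in P0 Emcn- replicate 1, where Dll4 held 11.6%. The summed receptor level was 158 and 138 CPM per kb in P0 Emcn+ against 20.1 to 47.4 CPM per kb elsewhere, and the summed ligand level was 111 and 75.1 against 8.70 to 31.9 CPM per kb.

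**Figure D2:**
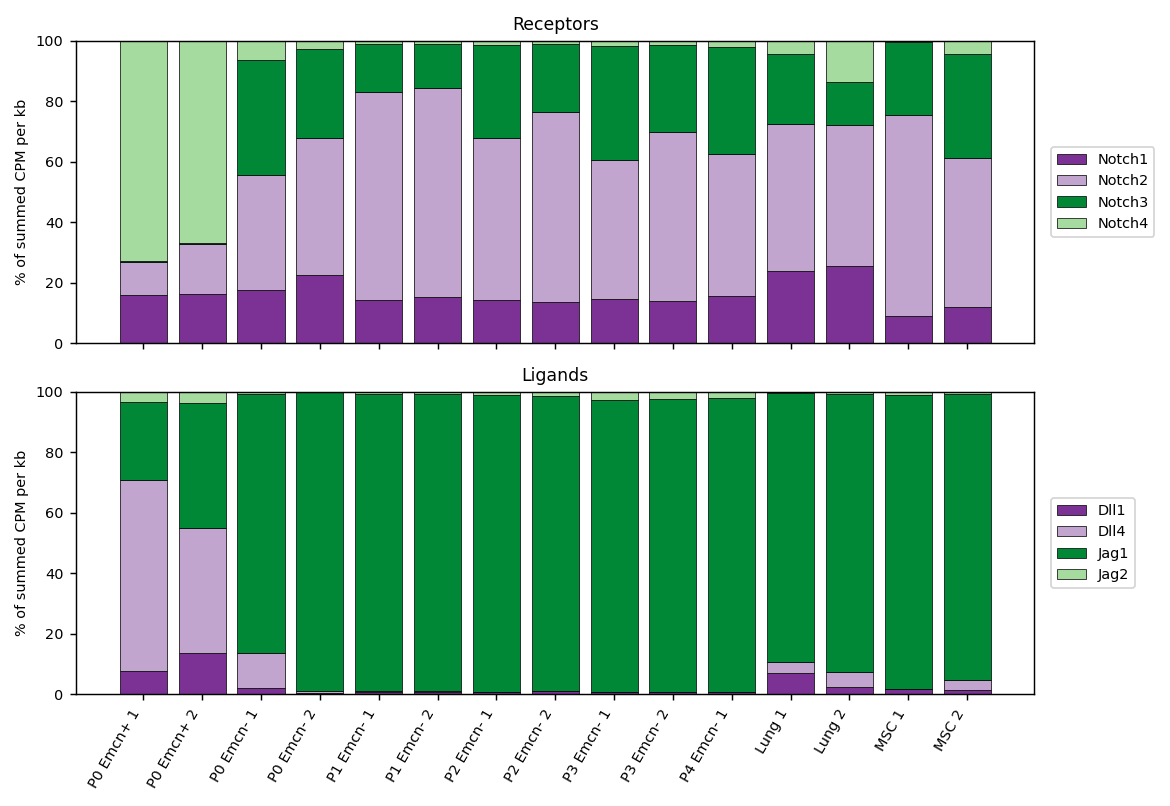
Share of each receptor (top) and ligand (bottom) in the summed CPM per kb of its class, as stacked bars for the 15 libraries. Notch4 fills 72.8% and 66.8% of the receptor bars in P0 Emcn+ and Notch2 leads in the lung, MSC and passaged libraries, while Jag1 fills 85.8% or more of every ligand bar outside P0 Emcn+.

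Levels of Notch4 and Dll4 outside P0 Emcn+ were next set beside Cdh5 library by library, a comparison chosen after the values had been seen. For every 100 CPM of Cdh5, the P0 Emcn+ libraries held 14.9 and 14.5 CPM of Notch4, and lung held 18.4 and 16.4 CPM. P0 Emcn- replicate 1 held 20.0 CPM and the MSC libraries 15 and 9.15 CPM. In P0 Emcn- replicate 2, with 63 Cdh5 counts, the figure was 109.5 CPM. In the passaged libraries Notch4 was 2.20 to 4.37 CPM and Cdh5 was 0.0564 to 2.33 CPM. These figures are not divided by exon length, so they compare libraries and do not rank the 2 genes. Dll4 per 100 CPM of Cdh5 was 4.34 and 2.33 CPM in P0 Emcn+ and 1.72 to 7.04 CPM in the P0 Emcn-, lung and MSC libraries. The higher Dll4 library in each of P0 Emcn-, lung and MSC was the one with more Cdh5, and the part of endothelial cells in these levels was not tested. Notch3 was also higher in the library with more Cdh5 in P0 Emcn- (146 against 75.4 CPM) and MSC (113 against 71.9 CPM), but not in lung (29.6 against 37.7 CPM), and unlike Dll4 and Notch4 it was lowest in the P0 Emcn+ libraries, which held the most Cdh5.

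**Figure D3:**
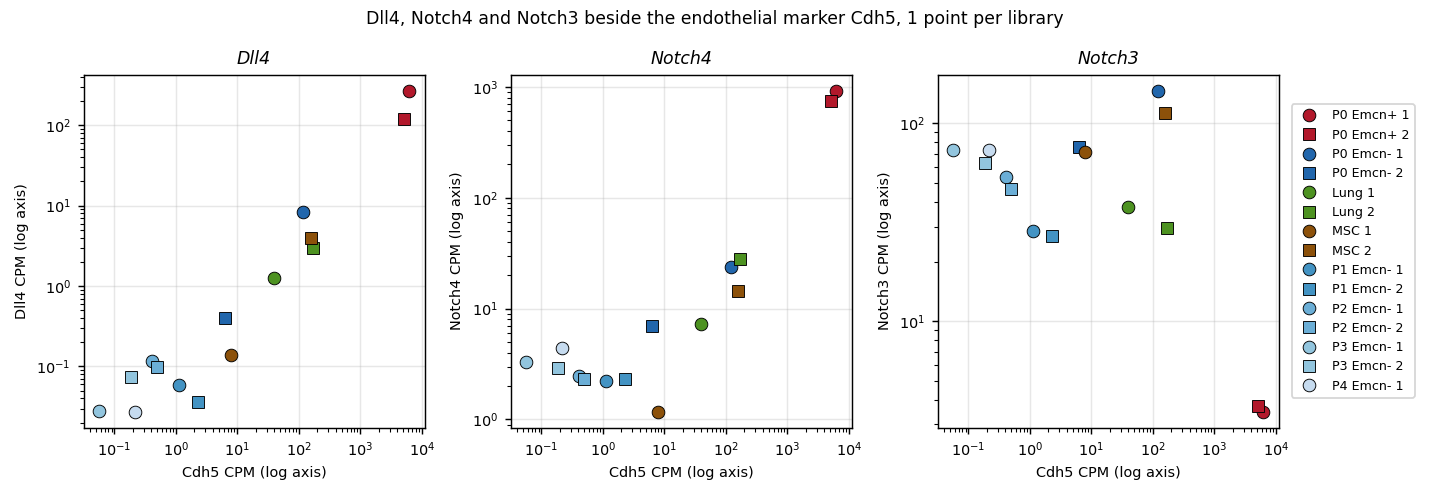
CPM of Dll4, Notch4 and Notch3 against CPM of the endothelial marker Cdh5, both on log axes, 1 point per library. Dll4 and Notch4 are higher in P0 Emcn- replicate 1, lung replicate 2 and MSC replicate 2 than in the partner libraries, Notch4 levels off between 2.20 and 4.37 CPM in the passaged libraries, and Notch3 is lowest in both P0 Emcn+ libraries.

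Lung and marrow cells were compared to ask whether cells sorted as Emcn- from both tissues share their profile. The 2 groups were not matched in RNA of the sort marker. Emcn was 32.6 and 125 CPM in lung against 12.7 and 2.52 CPM in P0 Emcn-. In P0 Emcn+ it was 631 and 798 CPM. Against P0 Emcn-, Notch3 was lower in lung by a log2 fold change of -1.65 ± 0.302 (adjusted p = 0.0125), the only 1 of 8 genes called, where 3.83% of all genes were, 1.7% being lower. Leaving out lung replicate 2 ended the call (-1.48, adjusted p = 0.0824), and so did leaving out P0 Emcn- replicate 1 (-1.08, adjusted p = 0.0567) or fitting these groups alone (adjusted p = 0.138). Within batches d and a the log2 ratio of Notch3 was -1.87 and -1.30. Dll4 and Notch4 had opposite signs in the batches, with log2 ratios of -2.64 and 2.92 for Dll4 and -1.63 and 2.06 for Notch4. The endothelial marker sum also changed order, being lower in lung than in P0 Emcn- in batch d (166 against 275 CPM) and higher in batch a (622 against 69.9 CPM).

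Against P0 Emcn+, lung cells had 6 of 8 genes called, Notch3 higher by 3.26 ± 0.331 (log2, adjusted p = 5.20e-05) and Notch1, Notch4, Dll1, Dll4 and Jag2 lower, against 21.1% of all genes, 12.6% higher and 8.48% lower. MSC had the same count against P0 Emcn+, where 31.3% of all genes were called (20.1% higher and 11.3% lower), with Notch3 higher by 4.74 ± 0.350 (adjusted p = 4.90e-06). By adjusted p alone lung had 8 of 8 genes, where 37.2% of all genes passed. The 2 comparisons share the P0 Emcn+ libraries, so their values are given side by side. The log2 fold changes in lung and MSC were -2.04 and -2.49 for Notch1, -5.55 and -6.72 for Notch4, -4.10 and -4.65 for Dll1, -6.54 and -6.52 for Dll4 and -5.11 and -4.08 for Jag2. With the replicate block, Dll4 no longer passed in MSC against P0 Emcn+ (adjusted p = 0.0600). P0 and lung libraries were in batches a and d and MSC and passages in b and c, so the effect of batch in any contrast between these sets cannot be told apart from that of condition.

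MSC set against P0 Emcn- had 0 of the 8 genes called by edgeR or by DESeq2, against 18.7% of all genes by edgeR, and 3 of the 8 had an unadjusted p under 0.05 in edgeR. Notch1 had a log2 fold change of -0.83 ± 0.195 (adjusted p = 0.00882), which is within the limit of 1.5, so that by adjusted p alone it was the 1 gene of 8, where 35.3% of all genes passed. Jag2 (1.12, adjusted p = 0.0823) and Notch2 (0.54, adjusted p = 0.0846) had the next smallest adjusted p-values. Leaving out 1 library gave up to 2 calls, among them Dll4 at -4.97 without MSC replicate 2 (adjusted p = 0.0438) and Jag2 at 2.11 without P0 Emcn- replicate 1 (adjusted p = 0.0447).

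MSC were also compared with P1 to P3 Emcn- cells, of which the replicate 2 libraries shared batch c with both MSC libraries. The study describes the passages as serial, and same-numbered libraries of P1 to P3 deviated together from their group means (correlation 0.354 to 0.451). The fit treats them as independent, so the SE and p-values of every MSC comparison with P1 to P3 can be too small. Dll1 was higher in MSC by 2.03 ± 0.385 (adjusted p = 0.00311) and Dll4 by 4.82 ± 1.24 (adjusted p = 0.0146), 2 of 8 genes where 14.2% of all were called, 8.42% being higher. Within batch c the log2 ratios were 2.02 and 4.79. The Dll4 difference came from MSC replicate 2, which held 132 of the 137 MSC counts and more of the endothelial markers, and it was 1.03 without that library (adjusted p = 0.782). With the replicate block Dll4 lost its call (adjusted p = 0.0642). Jag1 (1.11 ± 0.220, adjusted p = 0.00403), Notch3 (0.92, adjusted p = 0.0124) and Notch2 (0.56, adjusted p = 0.0357) lay within the 1.5 limit, which makes 5 of 8 genes by adjusted p alone, where 32% of all genes passed.

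**Figure D4:**
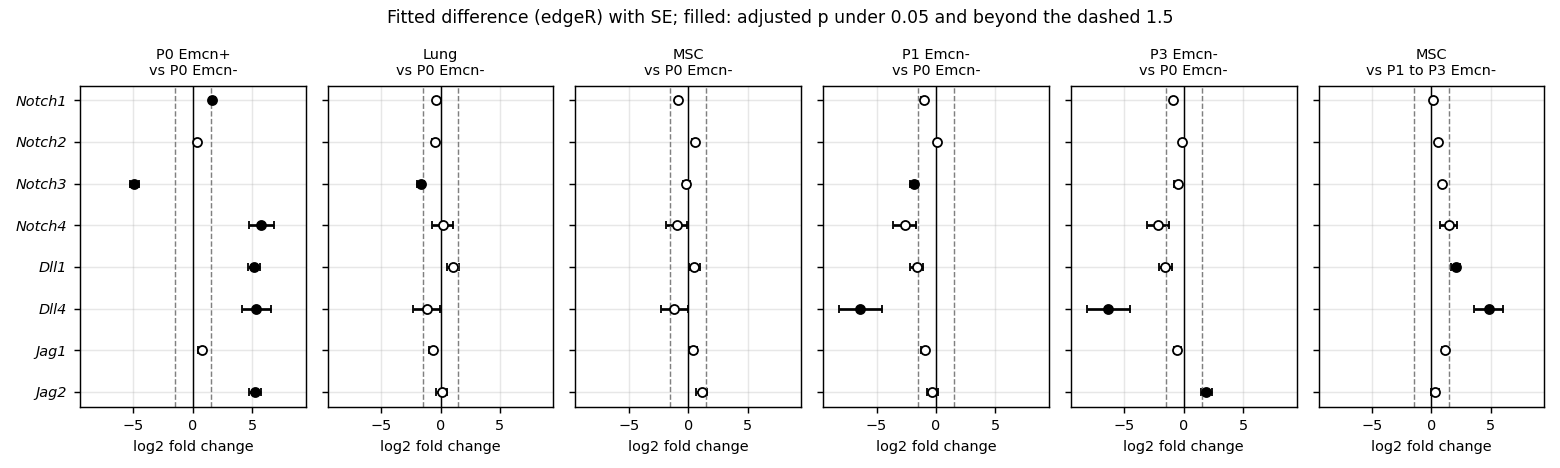
Fitted log2 fold change of each gene with its SE in 6 comparisons, first group over second. Filled points passed the test (adjusted p under 0.05 and beyond the dashed lines at 1.5), 6 of 8 for P0 Emcn+ against P0 Emcn-, 1 for lung, 0 for MSC, 2 for P1 and 2 for P3 against P0 Emcn-, and 2 for MSC against P1 to P3.

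Passaging was followed to see how Emcn- cells change in vitro. Between P0 and P1 the receptor Notch3 fell from 146 and 75.4 CPM to 28.6 and 26.9 CPM, a log2 fold change of -1.85 ± 0.304 (adjusted p = 0.00356). Notch1 was at 119 and 101 CPM at P0 Emcn- and at 45.6 and 50.8 CPM at P1 without overlap, a log2 fold change of -1.04 ± 0.196 (adjusted p = 0.00703) that did not reach the limit of 1.5. Dll4 was also called, with a fitted change of -6.37 ± 1.82 (adjusted p = 0.0393). In all, 2 of 8 genes were called, both lower, where 8.84% of all genes were and 3.07% were lower. By adjusted p alone there were 4 of 8, where 17.5% of all genes passed.

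The Dll4 values at P1 rest on 2 and 1 counts. Over summed counts Dll4 was 139.6-fold lower at P1 than at P0 Emcn- (95% counting interval 47.4 to 680, exact binomial), and against P0 Emcn- replicate 2 alone it was 8.27-fold lower (1.399 to 56.5). The call was lost without P0 Emcn- replicate 1 (-2.79, adjusted p = 0.626), without either P1 library and with the replicate block (adjusted p = 0.0627). Notch3 without P0 Emcn- replicate 1 changed by -1.29 (adjusted p = 0.0177). That replicate had a higher endothelial marker sum than its partner and a higher sum of 8 mural markers (1269 against 652 CPM). Most of the mural sum was Pdgfrb (1077 against 537 CPM), while Rgs5 (0.579 against 2.12 CPM) and Myh11 (1.91 against 2.92 CPM) were lower. The mural list also holds Mcam and Abcc9, which were highest in P0 Emcn+ (568 and 340 CPM, and 268 and 196 CPM). The part of either marker set in the fall was not tested.

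From P1 to P3, the levels of Notch3, Jag2 and Jag1 were higher at each step in both batches. These differences were not called by edgeR, and those of Jag1 were smaller and are given below. Notch3 measured 28.6 and 26.9 CPM at P1, 53.2 and 46.6 CPM at P2 and 73.3 and 63.0 CPM at P3, with 73.4 CPM in the P4 library. Jag2 measured 0.446 and 0.430 CPM at P1, 0.904 and 0.994 CPM at P2, 2.12 and 1.78 CPM at P3 and 1.81 CPM at P4. Neither Notch3 nor Jag2 overlapped between P1, P2 and P3, for which no share over all genes was computed. Between P1 and P3 alone, 5 of the 8 genes did not overlap in CPM. That is near the 52.7% of all genes tested, which were compared on TMM-scaled CPM. The P3 over P1 log2 fold changes were 1.33 ± 0.300 for Notch3 (adjusted p = 0.103) and 2.18 ± 0.460 for Jag2 (adjusted p = 0.0818), and 0 of the 8 genes were called by edgeR where 0.222% of all genes were. These 2 genes had an unadjusted p under 0.05, and DESeq2 called Jag2 (2.21, adjusted p = 0.00158), as did edgeR without the filter on low counts (2.19, adjusted p = 0.0365). Within batches b and c the log2 ratios were 1.402 and 1.25 for Notch3 and 2.29 and 2.07 for Jag2.

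The remaining genes were not called between these passages. Notch1 stayed at 43.6 to 53.3 CPM from P1 to P3 and Jag1 at 49.8 to 65.9 CPM, the latter with log2 ratios of 0.45 and 0.33 within batches b and c. Notch2 was 166 and 174 CPM at P1 and 118 and 161 CPM at P3, with its replicate 1 libraries lower than its replicate 2 libraries at each of P1, P2 and P3. Notch4 was 2.20 and 2.33 CPM at P1 and 3.30 and 2.92 CPM at P3 (0.50, adjusted p = 0.885), and Dll1 and Dll4 stayed at 15 counts or fewer in every passaged library. The share of Notch3 among the receptors was 15.8% and 14.2% at P1 and 37.9% and 29.0% at P3.

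Against P0 Emcn-, the later passages had 1 or 2 calls each. Dll4 was called at P2 (-5.23, adjusted p = 0.0407) and P3 (-6.35, adjusted p = 0.0301), in both cases lost with the replicate block (adjusted p = 0.0689 and 0.0549) and without P0 Emcn- replicate 1 (-1.65 and -2.76). Leaving out either library of the passage also ended the Dll4 call, at P2 (adjusted p = 0.179 and 0.159) and at P3 (adjusted p = 0.167 and 0.115). Jag2 was higher at P3 by 1.87 ± 0.461 (adjusted p = 0.0161) and at P4 by 1.80 ± 0.525 (adjusted p = 0.0431). Both Jag2 calls were lost without P0 Emcn- replicate 2, whose value rests on 3 counts, with 1.498 at P3 (adjusted p = 0.0518) and 1.41 at P4 (adjusted p = 0.0971). The P3 call was also lost without P3 Emcn- replicate 1 (1.71, adjusted p = 0.0834), and the P4 call with the replicate block (adjusted p = 0.0843). The counts were 1 of 8 genes at P2 where 12% of all genes were called (3 by adjusted p alone, where 23.6% were), 2 at P3 where 13.2% were and 1 at P4 where 9.68% were. P4 had 1 library, whose spread was taken from the other groups.

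**Figure D5:**
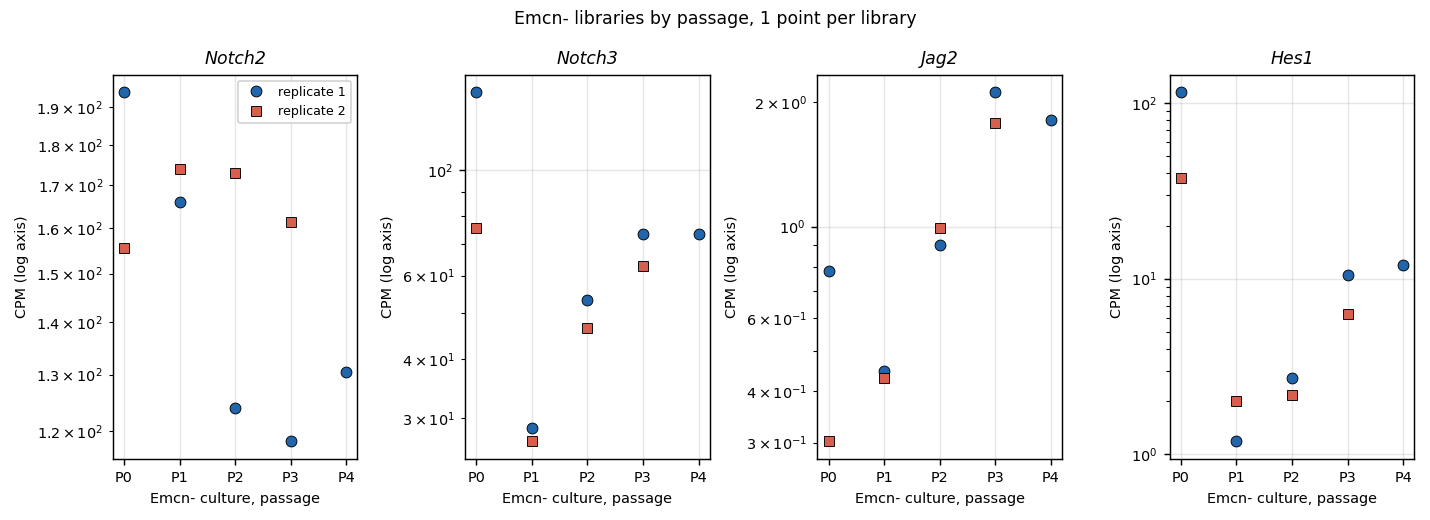
CPM on log axes of Notch2, Notch3, Jag2 and the Notch target Hes1 in Emcn- libraries from P0 to P4, 1 point per library, with P4 present only as replicate 1. Notch3 goes from 28.6 and 26.9 CPM at P1 to 73.3 and 63.0 CPM at P3 and Jag2 from 0.446 and 0.430 to 2.12 and 1.78 CPM, while Hes1 is lowest at P1.

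Other genes of the pathway were read from a list of 49, of which 48 were tested. Between the P0 groups 9 were called, 5 higher and 4 lower in P0 Emcn+ (18.8% of those tested, with a median log2 fold change of 0.22). Over all genes tested the share was 19.2%, with 7.79% higher and 11.4% lower, which is near the share of the list. Nrarp, a Notch target that restrains the signal, was 267 and 191 CPM in P0 Emcn+ against 5.87 and 0.101 CPM. Mfng, a Fringe enzyme that puts sugars on the receptors, was 98.2 and 71.1 CPM against 2.57 and 0.504 CPM, and Gja5, an arterial connexin gene, was also higher (log2 fold change 4.80, adjusted p = 0.00219). Lower were Dlk1, a noncanonical ligand that can dampen Notch (-8.68, adjusted p = 0.00126), the target Heyl (-4.07, adjusted p = 0.0351), the Numb-like adaptor gene Numbl (-2.27, adjusted p = 3.89e-06) and Rbpj (-1.57, adjusted p = 0.0231). Heyl is also known from smooth muscle. The Heyl call was lost without P0 Emcn- replicate 1 (-3.13) or either P0 Emcn+ library (-6.03 and -3.30). That of Rbpj was lost with the replicate block (-1.43), without P0 Emcn- replicate 2 (-0.60) and likewise without P0 Emcn+ replicate 1 (-1.29). None of the 9 genes for cleavage of the receptors was called by edgeR or DESeq2, where 19.2% of all genes were called by edgeR, and 5 of them had an unadjusted p under 0.05 in edgeR.

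The targets Hes1 and Hey1 were not called between the P0 groups. Hes1 stood at 140.5 and 93.3 CPM in P0 Emcn+ against 115 and 37.6 CPM for P0 Emcn-, with overlapping groups and a log2 fold change of 0.64 (adjusted p = 0.386), which was 1.69 and called without P0 Emcn- replicate 1 (adjusted p = 0.0333). Hey1 was 17.4 and 4.75 CPM against 8.56 and 2.62 CPM, also with overlap (0.99, adjusted p = 0.440, and -0.22 without P0 Emcn+ replicate 1). Lfng, another Fringe gene, was at 23.7 and 13.6 CPM against 15.5 and 23.4 CPM (-0.01, adjusted p = 1), and its sign turned with DESeq2 and with DESeq2-type size factors. In lung, 2 pathway genes were called against P0 Emcn-, both lower (4.17% of those tested, beside 3.83% of all genes). They were Hes1, at 10.7 and 14.2 CPM (-2.57, adjusted p = 0.0241), and Hey1, with 3 counts over both lung libraries, which is 142-fold lower (95% counting interval 48.3 to 693). Both calls were lost when either lung library or P0 Emcn- replicate 1 was left out, where Hes1 ranged from -2.77 to -1.53. DESeq2 called 6 of the pathway genes in this comparison.

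At P1, 8 pathway genes were called against P0 Emcn-, 2 higher and 6 lower (16.7% of those tested, beside 8.84% of all genes, of which 3.07% were lower). Hes1 fell to 1.19 and 2.01 CPM (-5.44 ± 0.637, adjusted p = 0.000451), and Hey1 was also lower (-4.47, adjusted p = 0.0217). Heyl had 1 count at P1 against 507 at P0 Emcn-, a ratio of 628 (95% counting interval 112 to 24861), and Mfng had 4 against 107, a ratio of 33.1 (12.6 to 124). The 2 that rose were Dtx1, which encodes a ubiquitin ligase that binds Notch (3.03, adjusted p = 0.0167), and Dlk2 (2.75, adjusted p = 0.0382). Dlk1 (-0.09, adjusted p = 0.974) turned in sign with the replicate block (0.93), and its P0 Emcn- libraries stood at 45.4 and 896 CPM. Lfng (-1.16, adjusted p = 0.0200) stayed within the limit and Rbpj (0.95, adjusted p = 0.167) was not called. Without P0 Emcn- replicate 1 the count at P1 was 3, and without either P1 library it was 1, while Hes1 was called with any 1 library left out. Mfng lost its call with the replicate block (adjusted p = 0.0564). P2 and P3 each had 2 higher and 5 lower (14.6% of those tested, beside 12% and 13.2% of all genes), and P4 had 2 of each (8.33%, beside 9.68%).

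Hes1 read 1.19 and 2.01 CPM at P1, 10.4 and 6.33 CPM at P3 and 11.9 CPM at P4, without overlap between P1 and P3. The P3 over P1 change of 2.45 ± 0.580 had an adjusted p of 0.112, and 0 of the 48 tested pathway genes were called by edgeR, with 9 at an unadjusted p under 0.05. DESeq2 called 1, Hes1 itself (2.47, adjusted p = 0.000729), as did edgeR without the filter on low counts (2.46, adjusted p = 0.0291). Hey1 (1.23, adjusted p = 0.690), Lfng (0.63, adjusted p = 0.356), Rbpj (-0.56, adjusted p = 0.648) and Dlk1 (-0.99, adjusted p = 0.735) did not pass either.

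MSC had 10 pathway genes called against P0 Emcn-, 5 in each direction (20.8% of those tested, beside 18.7% of all genes). Hey2 (5.27, adjusted p = 0.00477), Dtx1 (3.20, adjusted p = 0.00611) and Dlk2 (3.15, adjusted p = 0.0111) were the highest, and Dlk1 (-8.21, adjusted p = 0.00203), Lfng (-1.98, adjusted p = 0.000743) and Dtx4 (-1.76, adjusted p = 0.0103) the lowest. Hes1 (-1.39, adjusted p = 0.0621), Hey1 (-1.64, adjusted p = 0.185) and Rbpj (0.85, adjusted p = 0.167) were not called. Leaving out 1 library ended the call of Dlk2 (2.11 without P0 Emcn- replicate 1) and of Dtx4 (-1.12 without MSC replicate 1), and gave calls of Hes1 and Rbpj without P0 Emcn- replicate 2 (-1.999 and 1.79) and of Hey1 without MSC replicate 2 (-3.64). Against P1 to P3, MSC had 6 higher and 1 lower (14.6%, beside 14.2% of all genes, of which 8.42% were higher). The higher ones included 5 of the 10 listed targets, with Hes1 at 17.8 and 37.9 CPM (3.01 ± 0.393, adjusted p = 0.000423), Hey2 (3.97, adjusted p = 0.00126), Hey1 (2.18, adjusted p = 0.0448), Heyl (133 counts against 2 over P1 and P2 and 0 at P3) and Unc5b (3.19, adjusted p = 0.000183), the last named after its value was seen. Mfng was higher too (65 counts against 8 over the 3 passages) and Dlk1 lower (-7.66, adjusted p = 0.00222), while Lfng (-1.07, adjusted p = 0.00758) and Rbpj (0.16, adjusted p = 0.781) were not called. MSC replicate 2 held 123 of the 133 Heyl counts and 61 of the 65 Mfng counts. Its 8 mural markers summed to 1886 CPM, against 1295 CPM in MSC replicate 1. Of these markers, Rgs5 and Myh11 were 38.1 and 41.1 CPM against 1.32 and 2.22 CPM. Cspg4 went the other way and was lower in MSC replicate 2, at 68.9 against 165 CPM. Without that library Hey1 (0.19), Heyl (4.56, adjusted p = 0.0630) and Mfng (1.33) lost their calls, and Hey1 also did without any 1 of 5 of the 6 libraries of P1 to P3 (adjusted p from 0.0748 to 0.0903). The part of mural cells in the Heyl level was not tested.

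Across the 15 libraries, the members fell into a set that varied together and others that did not. Pearson's r of log2 CPM was 0.98 for Notch1 with Notch4, 0.96 for Notch4 with Dll4 and 0.94 for Dll1 with Dll4. For Notch3 with Notch4 it was -0.77, and for Notch2 with Notch4 it was 0.17. These are descriptions over libraries that share conditions and batches, with P0 Emcn+ far from the rest, and they carry no test.

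The genes most like each member by the same measure, among those with a mean of at least 5 CPM, differed between members. For Dll4 they were She, Fam167b and Sox17, all with r of 0.99, and for Notch4 they were Arap3, Sh3tc1 and Afap1l1 (0.99, 0.99 and 0.98). Notch1 was closest to Tlcd3a, E130309D02Rik and Tlnrd1 (each 0.98), Dll1 to Ywhah, Scarb1 and Tbc1d1 (each 0.98), and Jag2 to Ppm1f, Itga6 and Rassf3 (each 0.97). Notch3 was closest to Sdc1, Ednra and Cxxc5 (0.96, 0.96 and 0.95), Ednra being the gene of the endothelin receptor of smooth muscle. The likeness was lower for Notch2 with Myo1e, Phlpp1 and Nrp2 (0.90, 0.88 and 0.87) and for Jag1 with Osgin1, Prag1 and Maff (0.92, 0.91 and 0.91). With Spearman's rho between 0 and 2 of the 3 genes stayed on each list.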

How the data were processed

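Reads were trimmed and then aligned by the authors in the nf-core RNASeq pipeline (STAR, GRCm38), with abundance from Salmon merged per gene by tximport. They deposited 1 table of whole-number counts per gene for the 15 libraries (KAPA RNA HyperPrep, RNA integrity above 7). How the estimates were rounded is not given in the sources used here. Library totals ran from 9914620 to 39718807 counts, and intervals and floors cover counting error only.

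Counts were filtered with filterByExpr (minimum count 10, minimum total 15), scaled by TMM and fitted over all 8 groups with edgeR 4.0.16 (limma 3.58.1, R 4.3.3) by its quasi-likelihood test, with 7 residual degrees of freedom and Benjamini-Hochberg adjustment over 19401 genes. The SE of a log2 fold change is its size divided by the square root of F. A call needed an adjusted p under 0.05 and a log2 fold change beyond 1.5. DESeq2 1.42.0, also with ashr 2.2.63 shrinkage, other filters and scalings, a replicate block, fits of only the compared groups and leaving out each library were alternatives. The main edgeR fit was tried on simulated data with changes planted only in well-counted genes. That trial did not cover sparse genes or the alternatives. The exact counting interval was tried separately. Likeness was Pearson's r of log2 CPM (prior count 2).

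The labels give same-numbered libraries of the P0 and lung groups, and of P1 to P3, a shared batch. Their deviations from the group means correlated at 0.139 to 0.209 and at 0.354 to 0.451. The numbers were therefore taken to pair these libraries in the replicate block, which is an alternative. The main fit held no term for batch or pairing, so its adjusted p-values leave the pairing out. No 2 replicates agreed within sampling noise (chi-square per degree of freedom 38.6 to 129). The labels do not tie each library to separate mice, so p-values measure the spread between these libraries.

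The members and gene lists were chosen with earlier results of these data known. Named are the 8 members, the pathway genes called with the largest change (up to 3 in each direction per comparison), the pathway genes Hes1, Hey1, Rbpj, Lfng and Dlk1 whatever their value, the cell type markers, and the 3 genes most like each member. Unc5b lies outside this rule and was named after its value was seen.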

Additional observations from a re-analysis of the deposited data

How the results depend on the processing

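The counts of members called were 6 under every alternative, and with any 1 library left out, for P0 Emcn+ against P0 Emcn-. For lung against P0 Emcn+ the count was 6 to 7 with 1 library left out, 8 by adjusted p alone and 6 under the other alternatives. For MSC against P0 Emcn+ it was 6 to 6 with 1 library left out, 5 with the replicate block and 6 under the other alternatives. The counts of the remaining comparisons moved further. Lung against P0 Emcn- had 0 with only the compared groups in place of 1, and 0 to 1 with 1 library left out. MSC against P0 Emcn- had 1 by adjusted p alone in place of 0, and 0 to 2. MSC against P1 to P3 had 5 by adjusted p alone in place of 2, 1 with only the compared groups and 1 with the replicate block, and 1 to 3. P1 against P0 Emcn- had 4 by adjusted p alone and 4 with DESeq2 in place of 2, 1 with only the compared groups and 1 with the block, and 0 to 3, with 0 without P0 Emcn- replicate 1. P2 had 3 by adjusted p alone and 2 without the filter in place of 1, 0 with only the compared groups and 0 with the block, and 0 to 2. P3 had 1 with ashr in place of 2, 0 with only the compared groups and 1 with the block, and 0 to 2. P4 had 2 with DESeq2 and 2 without the filter in place of 1, 0 with only the compared groups and 0 with the block, and 1 to 2. P3 against P1 had 1 with DESeq2, 1 with ashr and 1 without the filter in place of 0, and 0 to 0. Fitting only the compared groups leaves fewer libraries for the spread, and the cause of the other changes was not tested.

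The replicate block held a term for batch d against a and another for b against c, so it pairs no libraries between P0 and the passages or MSC. Adding the block ended calls of Dll4 in 5 comparisons, of Jag2 at P4, of Mfng at P1 and of Rbpj between the P0 groups, as given above with their values. It turned the sign of Dlk1 at P1 (0.93) and of Rbpj in MSC against P1 to P3 (-0.0095), and it changed no other call of a member or named pathway gene. Lfng between the P0 groups became 0.021 with DESeq2, 0.014 with ashr and 0.015 with DESeq2-type size factors.

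Pathway counts moved by more than 1.5 times as follows. Lung against P0 Emcn- had 6 with DESeq2 and with ashr, 5 without the filter and 0 with only the compared groups in place of 2. By adjusted p alone the counts were 20 in place of 9 for P0 Emcn+ against P0 Emcn-, 28 in place of 14 for lung and 30 in place of 14 for MSC against P0 Emcn+, 23 in place of 10 for MSC against P0 Emcn-, 20 in place of 7 for MSC against P1 to P3, 12 in place of 7 at P2 and 15 in place of 7 at P3. With only the compared groups MSC against P0 Emcn- had 6, P1 had 3 in place of 8 and P4 had 0 in place of 4, and P4 had 2 with the block.

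With 1 library left out, the log2 fold changes of these genes crossed 0, here with their lowest and highest values. For Lung against P0 Emcn- they were Dlk1 -2.94 to 1.34, Dll4 -1.99 to 2.40, Jag2 -0.67 to 1.08, Lfng -0.41 to 0.17, Notch4 -1.04 to 1.39, Rbpj -1.07 to 0.46. For MSC against P0 Emcn- they were Dll1 -0.021 to 1.96, Dll4 -4.97 to 2.40, Jag1 -0.094 to 0.77, Notch3 -0.60 to 0.37, Notch4 -3.64 to 0.21. For MSC against P0 Emcn+ they were Jag1 -0.84 to 0.042, Notch2 -0.022 to 0.39. For MSC against P1 to P3 they were Notch1 -0.13 to 0.40, Notch4 -1.19 to 2.35, Rbpj -0.14 to 0.41. For P0 Emcn+ against P0 Emcn- they were Hey1 -0.22 to 2.13, Lfng -0.46 to 0.34. For P1 Emcn- against P0 Emcn- they were Dlk1 -1.02 to 3.26, Jag2 -0.69 to 0.68, Notch2 -0.059 to 0.28. For P2 Emcn- against P0 Emcn- they were Dll1 -1.94 to 0.041, Notch2 -0.27 to 0.18. For P3 Emcn- against P0 Emcn- they were Notch2 -0.33 to 0.043, Notch3 -0.92 to 0.057. For P3 Emcn- against P1 Emcn- they were Dll1 -0.13 to 0.24, Dll4 -0.65 to 0.57. For P4 Emcn- against P0 Emcn- they were Dll1 -1.73 to 0.25, Notch3 -0.79 to 0.18.

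Of the log2 fold changes of single genes, 1008 kept their direction and their side of the test under the alternatives that kept all libraries, 27 gained and 28 lost a call and 5 changed sign. With 1 library left out the numbers were 480, 16, 51 and 37. In P0 Emcn- replicate 1, Notch2 and not Notch3 led the receptors with the longest transcript or with no length correction, and no other library changed its leading receptor or ligand. Depth limits Dll1, Dll4 and Jag2 outside P0 Emcn+, where many values rest on a few counts, and all groups hold 1 or 2 libraries.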
